A study of Danio rerio with 23 samples.

Results

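The genes of oxidative phosphorylation were followed in the intestine of starved, refed and continuously fed adult zebrafish. Members were taken by name: every gene whose symbol begins with nduf, sdha to sdhd, uqcr, cox4 to cox8 or atp5, and the mitochondrial genes mt-nd, mt-co, mt-cyb and mt-atp. They made up 117 of the 34326 genes counted, with 104 nuclear genes (45 of complex I, 9 of complex II, 9 of complex III, 21 of complex IV and 20 of complex V) and all 13 mitochondrial protein genes. The 4 ndufa4 genes carry the name of complex I but were placed in complex IV, where their product belongs.

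Oxidative phosphorylation is the final stage of respiration in the mitochondrial inner membrane. Complexes I and II take electrons from NADH and succinate, complex III passes them to cytochrome c, complex IV hands them to oxygen, and the proton gradient built on the way drives ATP synthesis by complex V. All complexes but complex II combine subunits from both genomes, and the mitochondrial genes are cut from long transcripts that cover many genes, so their levels are not independent of each other.

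RNA from whole dissected intestines of single fish was sequenced in 23 libraries after ribosomal RNA depletion. The fish were siblings of 1 breeding pair, born on the same day and 60 days old (dpf) when food was withdrawn, although the labels give 81 dpf for every library. Starved fish received no food for 3 days (3dpS, 4 libraries) or 21 days (21dpS, 4 libraries), and refed fish were fed again for 3 days after 21 days of starvation (3dpR, 4 libraries). Fed controls had food throughout and were sampled at 3dpS (3 libraries), 21dpS (4) and 3dpR (4). Diet was given by tank, with 2 tanks each, so starved or refed fish never shared a tank with fed controls, while groups of the same diet at different times came from the same 2 tanks. The libraries are single fish within these tanks. Tests against fed controls treat the fish as independent, so their p-values do not account for differences between tanks of the same diet. The tank of each fish was inferred from the number after the diet in the library title, a number that neither the titles nor the paper define. By that reading, at 21dpS 1 starved fish came from tank 1 and 3 from tank 2.

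Low counts limited what could be seen. Between 500205 and 1236436 reads were counted per library (median 596487). All levels here are in CPM, counts relative to the scaled library total, and 1 read was worth 0.726 to 2.27 CPM. The smallest detectable count was taken as 3 reads, which were worth 2.43 to 6.00 CPM when set against the unscaled library total. Of the 117 members, 113 had a read in some library and 56 in every library. Among the 104 nuclear genes, 4 had no read, 55 averaged under 3 reads, 24 between 3 and 10, and 2 at least 100. In the comparisons of 2 groups, 33 to 42 members passed the filter on low counts, among them all 13 mitochondrial genes and 20 to 29 nuclear genes, and 45 members (32 nuclear) passed it over all 23 libraries. Counts and medians over the members tested therefore describe those members and not all 117. At the edge of the filter, NDUFV1, which binds NADH in complex I, and ndufab1b, the mitochondrial acyl carrier protein, averaged 21.3 and 20.1 CPM and were tested at 3dpS and 3dpR but not at 21dpS. The complex IV subunit cox4i1l and the complex III subunit UQCRH averaged 16.7 and 15.5 CPM and were tested at 3dpS and 21dpS but not at 3dpR. The enterocyte markers fabp2, vil1 and apoa1a (3 of 6 listed were found) were present in every library and summed to 567 to 1579 CPM. The library of fed control 1 at 3dpS stood apart and had the lowest mitochondrial share of all. Exocrine pancreas markers (8 of 13 listed were found) held 5962 CPM there, against 530 and 709 CPM in the other fed controls at 3dpS.

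One gene, MT-ND6, took most of the reads on the mitochondrial protein genes. It encodes a membrane subunit of complex I and is the only protein gene on the other strand of the mitochondrial genome. It averaged 16493 reads, which was 4.21 times the 3914.74 reads of MT-CO1, the catalytic subunit of complex IV, and 66.2% of all mitochondrial protein reads (56.7% to 79.3% by library). MT-CO1 held 15.7%, MT-CO2 5.22%, MT-CYB (the cytochrome b of complex III) 2.94%, MT-ND5 2.93% and each of the others under 1.5%, down to mt-nd4l with 0.154%. Without strand in the counting, or with the strand reversed, reads from transcripts of the opposite strand are credited to MT-ND6. Because the strand setting is not given in the sources used here, the MT-ND6 count may include such reads, and whether it does was not tested. The 12 other mitochondrial genes are therefore given apart from MT-ND6. The unknown setting applies to every other gene as well. With the strand reversed, the count of a gene would hold reads of the opposite strand in place of its own. The part of the setting in the counts of all members was not tested.

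The share of counted reads did not separate the diets. All 13 mitochondrial genes together held 3.18% to 4.12% of counted reads in starved fish and 2.52% to 4.20% in fed controls at 3dpS. At 21dpS the shares were 3.80% to 4.87% in starved fish and 3.03% to 4.48% in fed controls, and at 3dpR they were 3.85% to 4.87% in refed fish and 3.61% to 5.73% in fed controls. The nuclear genes held 0.178% to 0.321% over all libraries. These groups overlapped at every time point. MT-ND6 itself differed by -0.23 (adjusted p = 0.707) at 3dpS, 0.14 (0.803) at 21dpS and 0.02 (0.980) at 3dpR on the log2 scale, none past the threshold.

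**Figure D1:**
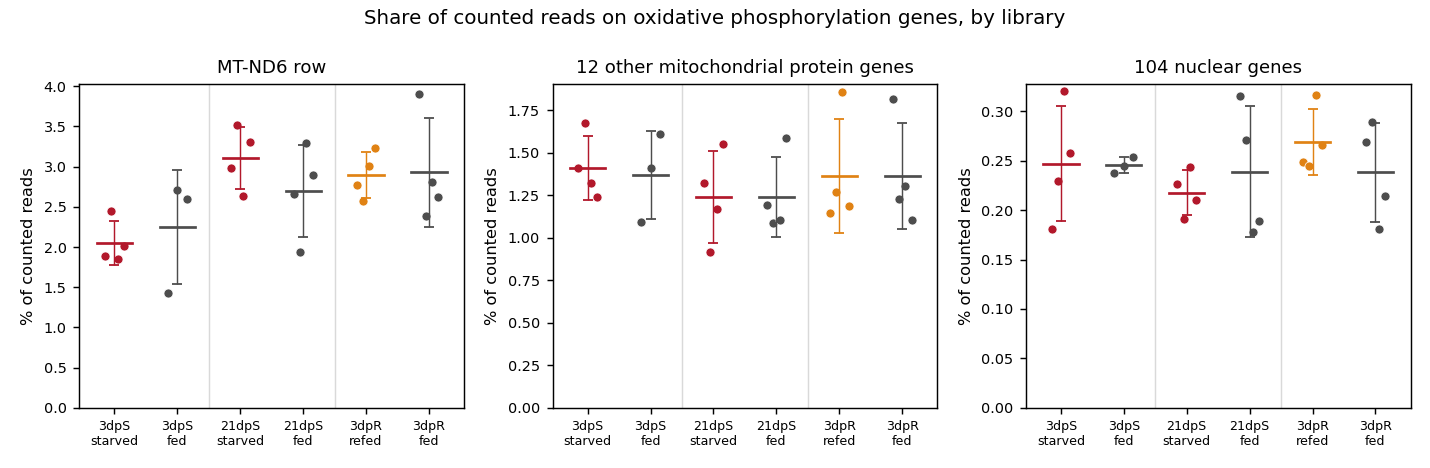
Percentage of counted reads on MT-ND6, on the 12 other mitochondrial protein genes and on the 104 nuclear genes, by library, with starved or refed fish left of the fed controls of the same time point. Points are libraries, bars are means and whiskers are SD; the groups overlap at each time point, and the nuclear genes stay between 0.178% and 0.321%.

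Among the nuclear genes, a single one dominated. NDUFB2, an accessory subunit of complex I, averaged 513.652 reads and held 34.0% of all nuclear member reads, and the 5 genes with most reads held 60.0%. In the GRCz12tu annotation of RefSeq, NDUFB2 overlaps kmt2e and kdm7aa, which averaged 3.26 and 2.39 reads here, and NDUFAF1, an assembly factor of complex I, overlaps nusap1 (48.8 reads). Reads of overlapping genes cannot be divided without strand, so both are uncertain. Of 86 nuclear members matched in that annotation, 26 overlap another gene, among them cox6b2, ndufa4b and ATP5PB, and carry the same limit. The reads were mapped to GRCz10, an assembly in which overlap was not examined. The median nuclear member had 2.74 reads, against 24.5 reads for 72 cytosolic ribosomal protein genes.

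Early starvation was addressed by comparing starved fish with fed controls at 3dpS, and no member passed the test. Of 42 members tested by edgeR's quasi-likelihood test, 13 were higher and 29 lower in starved fish, with a median log2 fold change of -0.19 against 0.01 over all genes tested. No member was called at an adjusted p under 0.05, and 0.531% of all genes tested were. At an unadjusted p under 0.05 there were 3 higher and 2 lower members, which is 5 of 42 beside 15% of all genes, and DESeq2 called 1, MT-ND2. The starved group lay wholly above the fed controls in 3 members (beside 7.08% of all genes) and wholly below them in 3 (7.18%), 6 of 42 in all beside 14.3%. Enterocyte marker sums overlapped, with 706 to 1012 CPM in starved fish and 852 to 1374 CPM in fed controls. Of the liver markers 5 of 5 tested were higher in starved fish, with a median of 0.81 and none called.

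The members nearest to a call at 3dpS were 2 neighbouring mitochondrial genes. MT-ND2, a proton-pumping membrane subunit of complex I, had 1162, 783, 399 and 794 CPM in starved fish, against 350, 319 and 311 CPM in fed controls. Every starved fish was above every fed control, and the third starved fish came closest. The difference was 1.27 ± 0.31 (log2, SE), with an adjusted p of 0.0829. Leaving out each of the 7 libraries in turn gave an adjusted p of 0.0300 (without starved fish 3) to 0.396, and 1 of these fits called MT-ND2. MT-ND1, another membrane subunit of complex I, had 934, 753, 585 and 760 CPM in starved fish and 435, 458 and 510 CPM in fed controls (0.71 ± 0.22, adjusted p = 0.155), again without overlap. Without fed control 1, the values were 1.33 (adjusted p = 0.0793) for MT-ND2 and 0.66 (0.178) for MT-ND1.

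Most other mitochondrial genes were lower at 3dpS. MT-ND3 and mt-atp8, small subunits of complexes I and V, were lower in every starved fish than in any fed control. MT-ND3 had 65.1, 68.3, 59.3 and 77.5 CPM in starved fish and 111, 111 and 85.0 CPM in fed controls (-0.58 ± 0.26, adjusted p = 0.314). For mt-atp8 the values were 48.0, 56.7, 43.5 and 50.7 CPM in starved fish and 75.7, 79.0 and 64.2 CPM in fed controls (-0.53 ± 0.27, adjusted p = 0.384). Over the 13 mitochondrial genes, 4 were higher (MT-ND5 and MT-ND4 at 0.30 and 0.18 beside MT-ND1 and MT-ND2) and 9 lower, with a median of -0.19.

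The mixture of mitochondrial transcripts can be read without any scaling to other genes. MT-ND1 and MT-ND2 together, a pair chosen after its values were seen, made up 9.26% to 14.4% of the reads on the 12 mitochondrial genes in starved fish at 3dpS, against 5.34% to 6.01% in fed controls. At 21dpS their share was 7.86% to 12.4% in starved fish and 6.70% to 9.03% in fed controls. At 3dpR it was 4.74% to 6.46% in refed fish and 6.18% to 7.48% in fed controls. The groups were apart at 3dpS and overlapped at the other times, and these shares were not tested.

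Of the nuclear genes at 3dpS, 9 were higher and 20 lower (median -0.19). NDUFAF7, a methyltransferase that acts in the assembly of complex I, had 31.0, 17.4, 19.4 and 70.0 CPM in starved fish and 15.1, 11.5 and 9.62 CPM in fed controls. The groups did not overlap, though the last starved fish was far above the rest (1.48 ± 0.54, adjusted p = 0.223), and without it the difference was 0.89 (adjusted p = 0.449). UQCRFS1, the Rieske iron-sulfur protein of complex III, had 20.1, 15.98, 19.4 and 29.8 CPM in starved fish and 43.7, 28.7 and 36.9 CPM in fed controls (-0.77 ± 0.34, adjusted p = 0.304), with the highest starved fish just above the lowest fed control. Complex V was lower in 7 of 8 tested genes, with a median of -0.24 and no gene at an unadjusted p under 0.05. Without fed control 1, the nuclear median was -0.07 and there was still no call.

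Long starvation was addressed by the same comparison at 21dpS, where complex V genes had the lowest median of the complexes with 3 or more genes tested. Of 36 members tested, 11 were higher and 25 lower in starved fish (median -0.29, against -0.02 over all genes). No member was called by edgeR, beside 2.81% of all genes (1.65% lower), and DESeq2 called 1, ATP5F1A. Unadjusted p-values under 0.05 were found for 2 higher and 7 lower members, 9 of 36 beside 20.9% of all genes. The groups did not overlap in 1 higher member (beside 6.68% of all genes) and 3 lower members (5.74%), 4 of 36 in all beside 12.4%.

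All 8 tested nuclear genes of complex V were lower in starved fish at 21dpS, with differences of -1.17 to -0.21 and a median of -0.70. Of these, 4 had an unadjusted p under 0.05 and none was called. ATP5F1A, the alpha subunit of the catalytic F1 head, had 33.7, 38.4, 25.4 and 59.3 CPM in starved fish, against 78.2, 109, 66.7 and 85.4 CPM in fed controls. Every starved fish was below every fed control (-1.17 ± 0.31, adjusted p = 0.0589). When each of the 8 libraries was left out in turn, the adjusted p was 0.0447 (without fed control 3) to 0.144, and 1 of these fits called ATP5F1A. For atp5mea, the e subunit of the membrane part, starved fish had 21.4, 20.9, 19.0 and 20.2 CPM and fed controls 62.9, 35.6, 27.5 and 41.7 CPM (-1.10 ± 0.34, adjusted p = 0.0922), with starved fish close together and below all fed controls. The catalytic beta subunit ATP5F1B had 245, 169, 242 and 191 CPM in starved fish and 446, 501, 233 and 237 CPM in fed controls (-0.81 ± 0.30, adjusted p = 0.149). Here the fed controls split into a high and a low pair, by tank, and the groups overlapped.

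Summed over its 20 nuclear genes, complex V had 584, 485, 597 and 537 CPM in starved fish at 21dpS and 983, 1098, 673 and 651 CPM in fed controls. The 21 nuclear genes of complex IV summed to 160 to 252 CPM in starved fish and 256 to 282 CPM in fed controls. Both sums were lower in every starved fish than in any fed control, and neither was tested. For complex IV the highest starved fish (252 CPM) was just below the lowest fed control (256 CPM). COX4I1 averaged 89.1 of 214 CPM in starved fish and 124 of 266 CPM in fed controls. The subunit cox6b2 averaged 11.8 CPM in starved fish and 29.7 CPM in fed controls, while ndufa4b was higher in starved fish (24.0 against 10.3 CPM). For complex V the fed controls split by tank, as for ATP5F1B. That gene averaged 212 of 551 CPM in starved fish and 354 of 851 CPM in fed controls. Complex I without NDUFB2 (302 to 516 CPM in starved fish, 304 to 500 CPM in fed controls) and complexes II and III overlapped. In bulk tissue, fewer cells of a type and less RNA per cell cannot be told apart. The enterocyte markers moved the same way: all 3 of 3 tested were lower, with a sum of 567 to 723 CPM in starved fish and 989 to 1441 CPM in fed controls, without a call. Among them, apoa1a is an apolipoprotein gene that the paper itself reports as lower in starved fish at 21dpS. The paper adds that high levels in its fed controls of that time may account for part of this. Of the exocrine pancreas markers 4 of 4 tested were lower, 2 of them called, with a median of -1.77 and a sum of 128 to 317 CPM in starved fish and 239 to 1140 CPM in fed controls. Of the liver markers 4 of 5 were higher, with a median of 0.40 and none called. The part of these markers in the complex IV and V values was not tested.

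**Figure D2:**
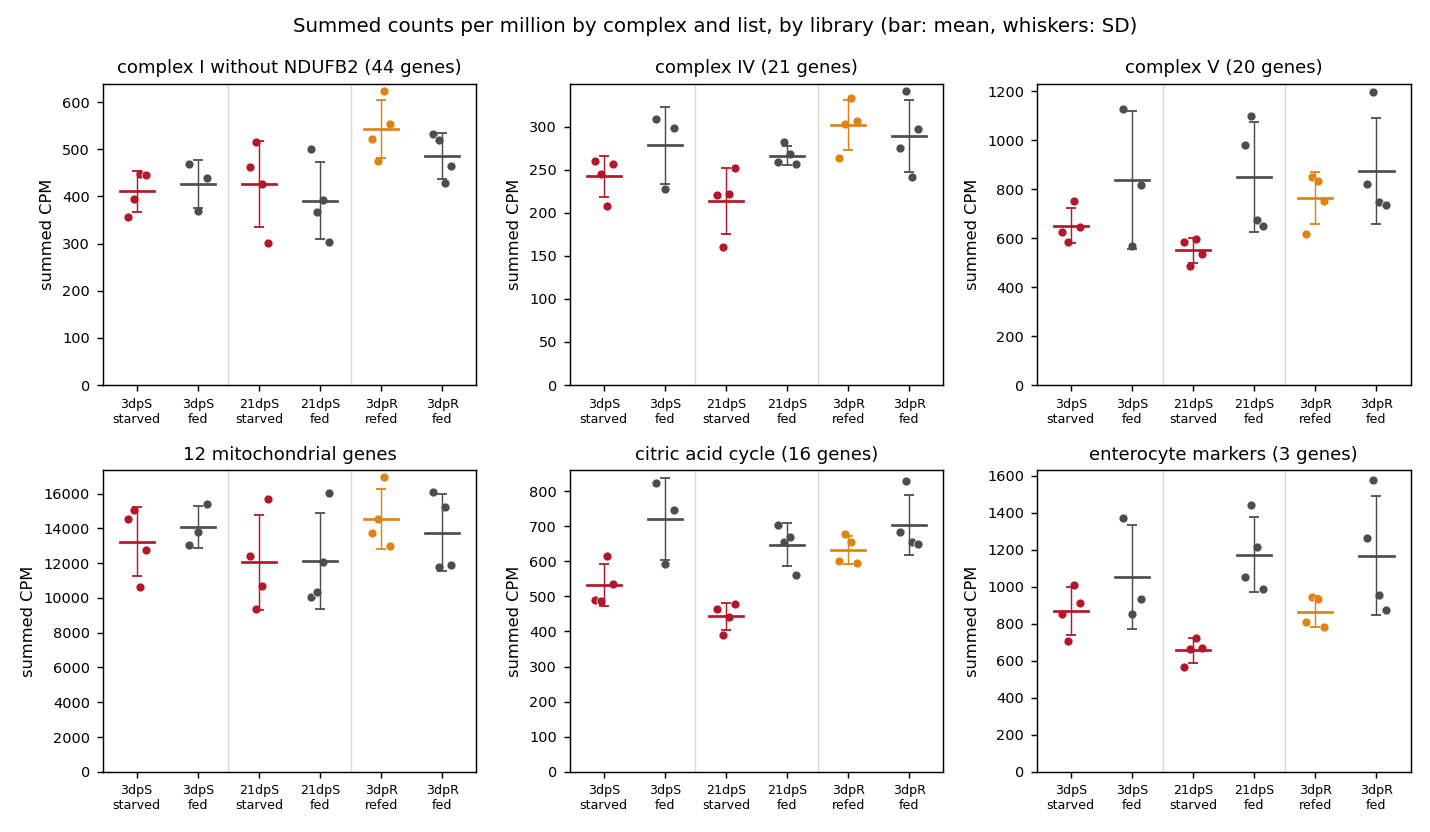
Summed CPM of nuclear complexes I (without NDUFB2), IV and V, of the 12 mitochondrial genes other than MT-ND6, of citric acid cycle genes and of enterocyte markers, by library, with starved or refed fish left of fed controls (bars are means, whiskers are SD). At 21dpS the 4 starved fish lie below the 4 fed controls for complexes IV and V, the citric acid cycle and the enterocyte markers, while the 12 mitochondrial genes overlap at every time point.

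Outside complex V, subunits of complex IV differed in direction at 21dpS. The subunit cox6b2, which is testis-enriched in mammals, had 6.13, 6.98, 25.4 and 8.68 CPM in starved fish and 21.5, 33.9, 23.5 and 39.9 CPM in fed controls (-1.36 ± 0.46, adjusted p = 0.116). A single starved fish reached the fed range, and without it the difference was -2.04 (adjusted p = 0.0325). Among the 8 fits that left out 1 library each, only that 1 called cox6b2, and the adjusted p reached 0.252. By contrast ndufa4b had 26.0, 20.9, 30.1 and 18.8 CPM in starved fish and 15.3, 8.49, 5.88 and 11.4 CPM in fed controls (1.13 ± 0.39, adjusted p = 0.126), all starved fish above all fed controls. Both cox6b2 and ndufa4b overlap another gene in GRCz12tu, so their values are uncertain in the way given above for NDUFB2. The main subunit COX4I1 gave -0.52 ± 0.29 (adjusted p = 0.319).

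In complex I at 21dpS, the 7 tested nuclear genes had a median of 0.26. NDUFAF7 had 75.1, 52.3, 39.6 and 62.2 CPM in starved fish and 56.7, 11.9, 11.8 and 13.3 CPM in fed controls. Only fed control 1 reached the starved range (1.17 ± 0.49, adjusted p = 0.189), and without that library the difference was 2.16 (adjusted p = 0.00932). Among the 8 fits that left out 1 library each, only that 1 called NDUFAF7, and the adjusted p reached 0.353.

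The mitochondrial genes at 21dpS were near an even split, 6 higher and 7 lower (median -0.28). MT-CO3, a core subunit of complex IV, had 312, 331, 293 and 389 CPM in starved fish and 457, 463, 418 and 467 CPM in fed controls (-0.50 ± 0.20, adjusted p = 0.180), without overlap. MT-ND2 had 651, 349, 637 and 1105 CPM in starved fish and 258, 414, 400 and 632 CPM in fed controls (0.64 ± 0.33, adjusted p = 0.298), with overlap. MT-CO1 gave 0.02 ± 0.25 (adjusted p = 0.985).

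**Figure D3:**
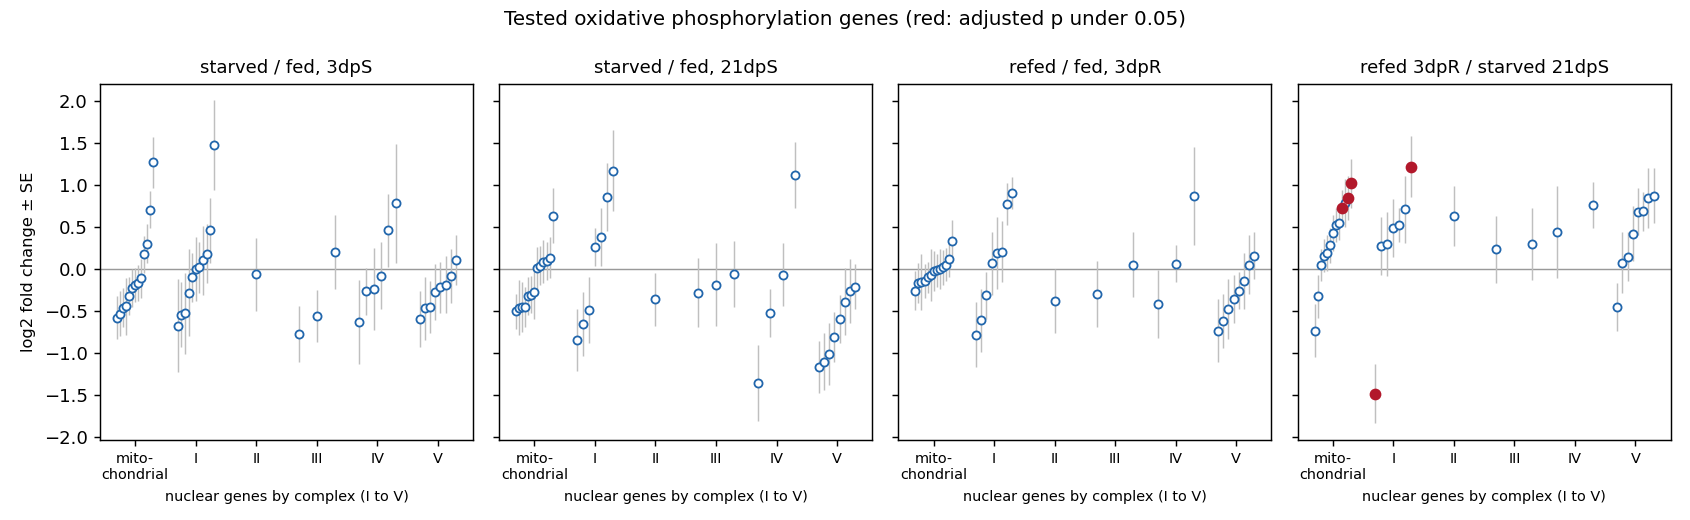
Log2 fold changes with SE of the members tested in each of 4 comparisons, grouped as mitochondrial genes and nuclear complexes I to V; red marks an adjusted p under 0.05. No point is red in the 3 comparisons with fed controls, and 5 are red for refed fish at 3dpR against starved fish at 21dpS.

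After 3 days of refeeding, the refed fish were compared with fed controls of the same time, and again no member was called by edgeR, beside 0.0349% of all genes (1 gene). Of 35 members tested, 15 were higher and 20 lower in refed fish (median -0.07, against -0.02 over all genes). Unadjusted p-values under 0.05 were found for 2 members, both higher, beside 7.51% of all genes, and DESeq2 called 1 of them, NDUFB2. The groups did not overlap in the same 2 members, 2 of 35 beside 4.72% of all genes (2.9% higher and 1.82% lower). The leukocyte marker sum was 127 to 215 CPM in refed fish and 216 to 316 CPM in fed controls. The pancreas sum was 241 to 716 CPM in refed fish and 660 to 1241 CPM in fed controls. Enterocyte sums overlapped, with 781 to 945 CPM in refed fish and 873 to 1579 CPM in fed controls. All 3 enterocyte and all 3 liver markers tested were lower, with medians of -0.58 and -1.57 and none called. The part of these markers in the member values was not tested.

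The 2 members without overlap at 3dpR were complex I genes that overlap another gene. NDUFB2 had 1478, 1034, 979 and 1174 CPM in refed fish and 580, 539, 567 and 691 CPM in fed controls, wholly apart (0.91 ± 0.19, adjusted p = 0.109). At the earlier times its groups overlapped, with differences of 0.02 ± 0.30 at 3dpS and 0.26 ± 0.23 at 21dpS. NDUFAF1 had 191, 147, 292 and 211 CPM in refed fish and 109, 120, 120 and 123 CPM in fed controls (0.78 ± 0.25, adjusted p = 0.552), also wholly apart.

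Nor was any gene of complexes II to V or of the mitochondrial genome called at 3dpR. The 13 mitochondrial genes had a median of -0.03, and the most different, mt-atp8 and MT-ND1, gave 0.33 ± 0.26 and -0.26 ± 0.23. Complex V was lower in 6 of 8 genes with a median of -0.31. Its lowest was ATP5PB, the peripheral stalk subunit b, with 31.8, 42.6, 32.8 and 33.1 CPM in refed fish and 73.7, 86.0, 32.3 and 27.2 CPM in fed controls (-0.73 ± 0.38, adjusted p = 0.654), where the fed controls again split by tank. NDUFV1, which passed the filter here, gave -0.78 ± 0.39 (adjusted p = 0.654), ndufa4b 0.87 ± 0.58 (0.713) and SDHA, the flavoprotein and only tested gene of complex II, -0.38 ± 0.38 (0.807).

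The passage out of starvation was followed by setting refed fish at 3dpR against starved fish at 21dpS. These starved fish also served in the 21dpS comparison, so the results are not independent of it. Of 33 members tested, 29 were higher and 4 lower in refed fish, with a median of 0.44, while 50.1% of all genes were higher with a median of 0.00. By edgeR's quasi-likelihood test 5 of the 33 members were called, beside 11.3% of all genes. Of these, 4 were higher (5.22% of all genes) and 1 was lower (6.12%). At an unadjusted p under 0.05 there were 13 higher and 2 lower members, 15 of 33 beside 27.9% of all genes. The groups did not overlap in 10 higher members (beside 7.71% of all genes) and 1 lower member (9.61%), 11 of 33 in all beside 17.3%.

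Of the 3 mitochondrial genes called, MT-ND3 and mt-nd4l encode parts of complex I. MT-ND3 (ENSDARG00000063914) had 173, 224, 162 and 159 CPM in refed fish, against 88.8, 117, 42.8 and 107 CPM in starved fish, and rose by 1.02 ± 0.29 (adjusted p = 0.0342). For mt-nd4l (ENSDARG00000063916) the values were 70.4, 78.9, 82.0 and 104 CPM in refed fish and 42.9, 41.9, 55.5 and 46.3 CPM in starved fish (0.84 ± 0.26, adjusted p = 0.0484). In both, every refed fish was above every starved fish. Fed controls over the same interval, 3dpR against 21dpS, gave 0.61 ± 0.35 for MT-ND3 and 0.52 ± 0.37 for mt-nd4l (adjusted p = 0.881 and 0.883). The refed values lay within the range of fed controls at 3dpR, which was 92.1 to 277 CPM for MT-ND3 and 49.4 to 131 CPM for mt-nd4l.

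The third was MT-ATP6 (ENSDARG00000063911), the proton channel subunit of complex V. It had 652, 650, 784 and 561 CPM in refed fish and 478, 446, 293 and 388 CPM in starved fish, wholly apart, and rose by 0.73 ± 0.22 (adjusted p = 0.0392), while fed controls over that interval gave 0.21 ± 0.23 (0.919). Its neighbour mt-atp8, whose reading frame overlaps that of MT-ATP6, had 139, 122, 153 and 124 CPM in refed fish. Starved fish had 58.2, 120, 47.5 and 88.2 CPM (0.79 ± 0.29, adjusted p = 0.0884). Leaving out each of the 8 libraries in turn gave an adjusted p of 0.0388 (without starved fish 2) to 0.212, with a call in 1 fit. Reads in the stretch that mt-atp8 and MT-ATP6 share cannot be assigned to either alone. Of all 13 mitochondrial genes, 11 were higher, with a median of 0.43.

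MT-ND1 and MT-ND2 were the mitochondrial genes that were lower. MT-ND2 had 309, 518, 492 and 319 CPM in refed fish and 651, 349, 637 and 1105 CPM in starved fish (-0.73 ± 0.32, adjusted p = 0.148), with 1 starved fish inside the refed range. Without that fish it was -0.97 (adjusted p = 0.0381), and without starved fish 4, the highest, -0.42 (0.396). With no filter on low counts edgeR called MT-ND2 (-0.79, adjusted p = 0.0462). MT-ND1 gave -0.33 ± 0.26 (adjusted p = 0.430). The abundant MT-CO1 (0.28 ± 0.21) and MT-ND6 (0.05 ± 0.19) did not pass the test, and the sum of the 12 mitochondrial genes, 12970 to 16957 CPM in refed fish and 9367 to 15722 CPM in starved fish, overlapped.

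The 1 member called lower was the nuclear assembly factor NDUFAF7 (ENSDARG00000033134). It had 22.7, 32.0, 10.9 and 16.6 CPM in refed fish and 75.1, 52.3, 39.6 and 62.2 CPM in starved fish, and fell by 1.48 ± 0.36 on the log2 scale (adjusted p = 0.0174). Every refed fish was below every starved fish. These are few reads, 18.0 per library on average. NDUFAF7 overlaps no other gene in GRCz12tu, but overlap in GRCz10, to which the reads were mapped, was not examined.

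**Figure D4:**
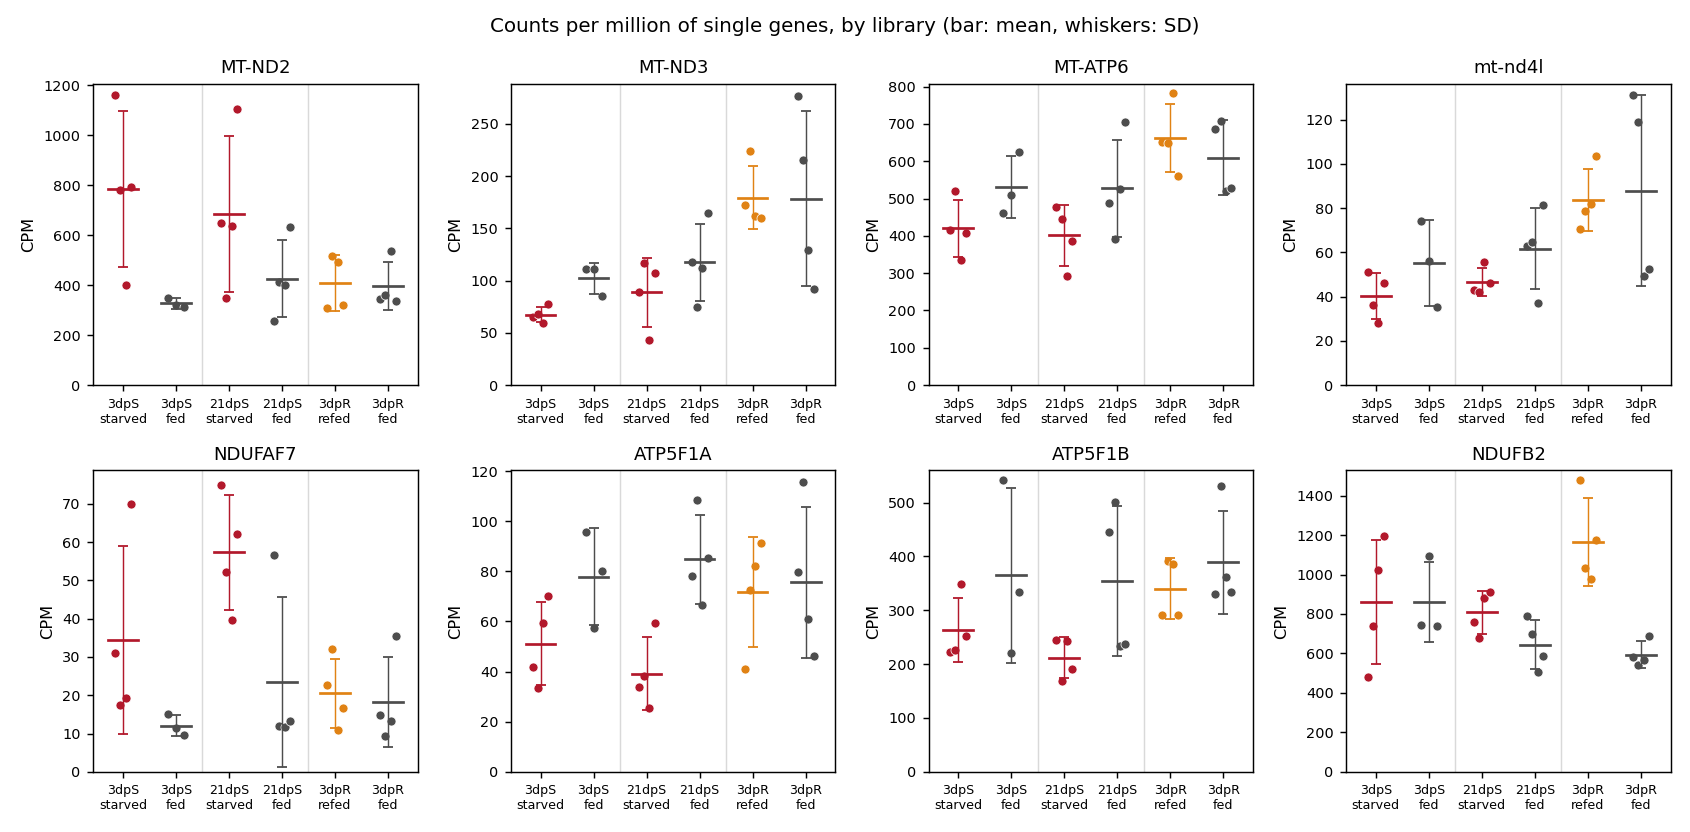
CPM by library of 8 members, with starved or refed fish left of fed controls (bars are means, whiskers are SD). MT-ND3, MT-ATP6, mt-nd4l and NDUFAF7 were called by edgeR between refed fish at 3dpR and starved fish at 21dpS. MT-ND2, ATP5F1A, ATP5F1B and NDUFB2 were not called by edgeR with the filter on low counts and no library left out. NDUFAF7 lies between 39.6 and 75.1 CPM in starved fish at 21dpS and between 10.9 and 32.0 CPM in refed fish.

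These calls depended on which fish were included, as did the calls over all genes. In this comparison 341 of 3008 genes were called. Leaving out each library in turn gave 117 (without starved fish 4) to 315 (without refed fish 2). Leaving out each of the 8 libraries in turn, NDUFAF7 stayed called in 5 of 8 fits, MT-ND3 only without starved fish 2 (adjusted p = 0.0365), and MT-ATP6 and mt-nd4l in none (0.0502 to 0.0958 and 0.0509 to 0.128). The call of NDUFAF7 was lost without starved fish 4, refed fish 3 or refed fish 4 (adjusted p = 0.0522, 0.0507 and 0.0536). Directions stayed the same in all of these fits. Of 6 other settings, NDUFAF7 was called in 5 (not with all 23 libraries, adjusted p = 0.0759), MT-ND3 in 5, MT-ATP6 in 4 and mt-nd4l in 2 (up to 0.238 without a filter on low counts). Both groups came from the same 2 tanks, and with the tank as a block 3 members were called, MT-ND3 and MT-ATP6 not among them (adjusted p = 0.0535 and 0.0517).

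Complex V genes were higher in 7 of 8 cases in refed fish, with a median of 0.55 and no call by edgeR. ATP5F1A had 40.9, 72.5, 82.0 and 91.1 CPM in refed fish and 33.7, 38.4, 25.4 and 59.3 CPM in starved fish (0.88 ± 0.33, adjusted p = 0.0997), with the lowest refed fish inside the starved range. ATP5F1B had 291, 392, 386 and 292 CPM in refed fish and 245, 169, 242 and 191 CPM in starved fish, wholly apart (0.69 ± 0.23, adjusted p = 0.0653). DESeq2 did call ATP5F1B (0.70, adjusted p = 0.0417). The inhibitor atp5if1b, which blocks ATP hydrolysis by the complex, gave 0.69 ± 0.28 (adjusted p = 0.124), and the epsilon subunit atp5f1e was the only one lower (-0.45 ± 0.28, adjusted p = 0.313). The summed complex V values were 618 to 851 CPM in refed fish and 485 to 597 CPM in starved fish. In complex IV, COX4I1 had 134, 168, 149 and 155 CPM in refed fish and 109, 50.6, 87.2 and 110 CPM in starved fish (0.77 ± 0.27, adjusted p = 0.0767), without overlap.

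Cell type markers moved in the same comparison. The enterocyte sum was 781 to 945 CPM in refed fish and 567 to 723 CPM in starved fish, the leukocyte sum 127 to 215 CPM in refed fish and 218 to 298 CPM in starved fish, and the liver sum 22.8 to 303 CPM in refed fish and 254 to 479 CPM in starved fish. The first 2 did not overlap. Of the 3 enterocyte markers tested, 3 were higher and none was called. Exocrine pancreas markers were higher in 4 of 4 tested, 1 of them called, with a median of 1.07 and a sum of 241 to 716 CPM in refed fish and 128 to 317 CPM in starved fish. Defining markers of red blood cells (2 of 5 listed were found) summed to at most 1.90 CPM in any library. Those of skeletal muscle (5 of 7 found) summed to at most 11.1 CPM. Most red cell markers were not found, so the first sum cannot show how much blood was present. The part of the marker shifts in the member values was not tested.

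Genes around the respiratory chain gave the following counts. In the citric acid cycle, which supplies its electrons, 16 of 17 listed genes were found. At 21dpS 9 of 10 tested were lower in starved fish (median -0.55) with none called, citrate synthase CS at -1.02 (adjusted p = 0.0761). The summed level was 389 to 479 CPM in starved fish and 560 to 704 CPM in fed controls. Most were also lower than in fed controls at the other times, 9 of 11 at 3dpS (median -0.19) and 7 of 9 at 3dpR (median -0.36), none called. In refed against starved fish, 7 of 10 were higher and 2 were called, beside 11.3% of all genes, ogdha of the oxoglutarate dehydrogenase (1.06, adjusted p = 0.0174) and SUCLG2 of succinyl-CoA ligase (0.88, adjusted p = 0.0362). Among assembly factors and carriers of complexes III to V, all 4 tested were lower at 3dpS (median -0.55, none called). At 3dpR 2 of 3 were higher, none called. All 3 tested were lower at 21dpS and LRPPRC, which stabilises mitochondrial messenger RNA, fell by 1.60 on the log2 scale (adjusted p = 0.0295, beside 2.81% of all genes called), while cytochrome c (cycsb) gave -0.98 (0.101). FOXRED1, an assembly factor of complex I, was the 1 called of 3 in refed against starved fish, again beside 11.3%, and rose by 1.19 (adjusted p = 0.0411). No gene was called among the ADP and phosphate carriers and porins or the regulators of mitochondrial biogenesis. The carrier SLC25A5 gave 1.16 at 3dpS (adjusted p = 0.0948).

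How the fed controls themselves differed over time was also examined. Of 37 members tested at 21dpS against 3dpS in fed controls, 17 were higher and 20 lower (median -0.01), none at an unadjusted p under 0.05, and DESeq2 called none. Of all genes 0.0588% were called, 13.8% had an unadjusted p under 0.05, and 12.3% did not overlap (5.91% higher and 6.38% lower), against 0 members in each case. Between fed controls at 3dpR and at 21dpS, a comparison added after the data had been seen, 26 of 36 members were higher (median 0.18, against -0.02 over all genes), 12 of 13 mitochondrial genes among them, and none was called, beside 0% of all genes. DESeq2 called none of them. NDUFAF1 alone had an unadjusted p under 0.05 (0.77 ± 0.25, adjusted p = 0.720), beside 5.2% of all genes, and NDUFAF1 alone did not overlap, beside 3.34% (1.96% higher and 1.38% lower). Refed fish at 3dpR and starved fish at 21dpS, whose members differed by a median of 0.44, were sampled over the same interval as these fed controls.

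Whether the effect of starvation or refeeding changed between time points was tested directly on all 23 libraries. Of 45 members tested, none was called for the effect at 21dpS minus that at 3dpS, beside 0% of all genes, or for the effect at 3dpR minus that at 21dpS, beside 0.0432%. DESeq2 called none in either. Unadjusted p-values under 0.05 were found for NDUFA3, an accessory subunit of complex I, and ndufa4b in the first (1.64 and 1.83, adjusted p = 0.516 and 0.521, beside 8.64% of all genes) and for NDUFA3 and ATP5F1A in the second (-1.79 and 1.02, adjusted p = 0.340 and 0.438, beside 9.94% of all genes).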

How the data were processed

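The values deposited by the authors are unnormalized counts, 1 column of Ensembl genes for each library. Ribosomal RNA-depleted libraries were sequenced as single-end reads. Adapters were removed with Trim Galore, STAR was run against GRCz10, and HTSeq gave the counts. The annotation release and strand setting are not given in the sources used here. Symbols matched 26803 of 34326 genes; 117 of 121 members had a count, and 3 symbols stood for 2 genes each.

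Tests used edgeR 4.0.16 and limma 3.58.1 under R 4.3.3, with filterByExpr (minimum count 10, minimum total 15), TMM scaling, and robust quasi-likelihood tests on the libraries of each comparison. P-values were two-sided and adjusted by the Benjamini-Hochberg method over all genes tested, with a threshold of 0.05. CPM values were scaled by TMM factors. The replicates are single fish, and no 2 libraries of a group agreed within sampling noise. Members and lists were chosen with earlier results of these data known. Named genes were the mitochondrial genes, all called members, the 5 smallest p-values in each direction against fed controls, the 10 most abundant nuclear genes, the leading gene of each complex, isoform pairs and genes at the filter's edge. Alternatives were DESeq2 1.42.0, no filter, RLE factors, scaling without mitochondrial genes, all 23 libraries, the tank number as a block, and leaving out each library. The tests were checked on simulated counts with known changes. Of changes of 1 on the log2 scale, 13.8% were called in the setting of 3dpS, 19.1% at 21dpS and 28.3% at 3dpR. In that of refed against starved fish, 26.7% were called. Of changes of 2, 85.2% to 96.6% were called. A gene without a call may therefore still differ by 1 on the log2 scale. No sequences are printed, and the values of 1 member are not reported here.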

Additional observations from a re-analysis of the deposited data

Results flagged for a closer look

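In 71 searches of a group of 4 libraries for a fish far from the others, 4 were found; chance gives about 1 in 20. The mitochondrial protein share in starved fish at 3dpS was highest in 1 fish at 4.12%, against 3.18% in the lowest. The share of MT-ND1 and MT-ND2 among the 12 mitochondrial genes in refed fish at 3dpR was lowest in 1 fish at 4.74%. NDUFAF7 in fed controls at 21dpS was highest in fed control 1 at 56.7 CPM, against 13.3 CPM or less in the other 3. The level of cox6b2 in starved fish at 21dpS was highest in fish 3 at 25.4 CPM, against 8.68 CPM or less in the others. What set these fish apart was not tested.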

How the results depend on the processing

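Directions of every called member held under all alternatives run. In starved against fed fish at 3dpS, the 0 calls became 1 with DESeq2 and 1 without a filter on low counts (MT-ND2, adjusted p = 0.0183 and 0.00217), and 0 to 1 when each library was left out. At 21dpS the 0 calls became 1 with DESeq2 (ATP5F1A, adjusted p = 0.0369) and 0 to 1 when each library was left out (NDUFAF7, ATP5F1A or cox6b2). At 3dpR they became 1 with DESeq2 and 1 without a filter (NDUFB2), and stayed at 0 when each library was left out; the nuclear median of -0.20 there ranged from -0.26 to -0.027, and moved most without fed control 2 (-0.027) or refed fish 1 (-0.028). Between refed fish at 3dpR and starved fish at 21dpS, the 5 calls became 3 in the fit of all 23 libraries and 3 with the tank number as a replicate block. Without a filter there were 3 calls, NDUFAF7, MT-ND3 and MT-ND2 (adjusted p = 0.0462), and MT-ND2 was not among the 5. There were 0 to 4 calls when each library was left out. The cause of these changes was not tested. DESeq2 called NDUFAF7, MT-ATP6, MT-ND3 and ATP5F1B between these groups. Without a filter, the median of all genes in that comparison was -0.18. RLE factors and scaling without the mitochondrial genes changed no count by over 1.5 times. Over all genes, calls numbered 21 with edgeR, 95 with DESeq2 and 172 without a filter at 3dpS, 90, 207 and 227 at 21dpS, and 1, 11 and 21 at 3dpR. Between refed fish at 3dpR and starved fish at 21dpS they numbered 341, 338 and 483 in the same order. Between diets the tank numbers name separate tanks and do not pair the fish: the tank difference of 1 group correlated with that of the other at r = -0.04, 0.20 and -0.21 at 3dpS, 21dpS and 3dpR, across genes, which are not independent. The low read counts of most nuclear members limit what these tests could show.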
